A study of Brachypodium distachyon with 12 samples.

Results

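The genes described here are 4 of the 39068 genes in the count table of the grass Brachypodium distachyon, line Bd21-3, chosen by identifier. The best sequence match of each in the table is a tyrosine decarboxylase or a tyrosine/DOPA decarboxylase. The table lists 13 genes with such an aromatic amino acid decarboxylase description. Of these, 7 lie outside chromosome 3, and 3 of the 7 (BdiBd21-3.2G0028800, BdiBd21-3.2G0028900 and BdiBd21-3.5G0285466) were not among the chosen genes. Messenger RNA was sequenced from whole roots and whole shoots of wild-type plants in hydroponic culture, at week 2 and at week 4, and each of the 3 biological replicates came from its own plants. The 4 groups of 3 libraries share line, genotype and growth conditions and differ by organ and age. Age and day of harvest cannot be told apart, and the labels do not say whether a root and a shoot library share plants.

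Tyrosine decarboxylases use pyridoxal phosphate to remove the carboxyl group of tyrosine, which gives tyramine, and many also accept DOPA, which gives dopamine. In opium poppy they supply the tyramine and dopamine units of benzylisoquinoline alkaloids, and in barley roots tyramine is methylated to hordenine. Close relatives in plants act as aldehyde synthases, so the names below state sequence similarity and no tested activity.

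Total counts per library ranged from 17261299 to 24186744. Markers chosen by description followed the organ labels. The summed CPM (counts scaled to a library of 1000000) of 27 chlorophyll a-b binding genes was 1119 to 7332 in root libraries and 63229 to 86379 in shoot libraries. Conversely, 11 genes described by a root cap domain summed to 636 to 836 CPM in roots and 0.953 to 2.97 CPM in shoots. Week 4 shoot replicate 1 stood apart from its group on the second principal component, at -18.4 against -87.4 and -113, and results without it are covered by the refits that leave out each library. The labels give no batch.

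Of the 4 genes, 3 lie on chromosome 2 within 47363 bases. BdiBd21-3.2G0653800 (tyrosine/DOPA decarboxylase 3, plus strand, 50254240 to 50256221) comes first. BdiBd21-3.2G0654500 (tyrosine/DOPA decarboxylase 5, minus strand, 50291002 to 50292335) starts 34780 bases beyond its end, with 6 listed genes between. BdiBd21-3.2G0654700 (tyrosine/DOPA decarboxylase 3, minus strand, 50299692 to 50301602) follows after a further 7356 bases and 1 listed gene. The last, BdiBd21-3.1G0383800 (tyrosine decarboxylase 1, minus strand, 24625057 to 24635589), lies on chromosome 1. Positions follow the deposited table, and the sources used here name no genome build.

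The gene models differ in form. The listed length equals the span for BdiBd21-3.2G0654700 (1911 bases) and BdiBd21-3.2G0653800 (1982 bases), so neither model holds an intron. BdiBd21-3.2G0654500 has 879 bases in a span of 1334, and BdiBd21-3.1G0383800 has 2158 bases in a span of 10533. All 4 carry the pyridoxal-dependent decarboxylase domain in the table, and 0 other listed genes overlap any of them. How reads that match several similar genes were counted is not given, so counts of the chromosome 2 genes may include reads shared among them. No sequence of these genes was used here.

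The chromosome 2 genes were higher in roots and the chromosome 1 gene was higher in shoots. At week 2, 3 of the 4 were called higher and 1 lower in roots by edgeR's quasi-likelihood test, and the same genes were called in the same direction at week 4. Over all 26463 tested genes, 28.4% were called higher and 27.7% lower in roots at week 2, and 32.4% and 28.5% at week 4, or 56.1% and 60.9% in either direction, so a call between organs was common. The median log2 fold change of the 4 genes was 7.19 at week 2 and 6.96 at week 4, against 0.01 and 0.04 over all tested genes. With genes at 0 counts in shoots set to their lower bound it was 5.62 and 5.37. All 4 passed the count filter, BdiBd21-3.2G0654500 and BdiBd21-3.2G0654700 through their root libraries alone. A gene that passes in this way had to differ between the organs. The counts of calls and the medians of the 4 are therefore a description. So are the p-values between organs of BdiBd21-3.2G0654500 and BdiBd21-3.2G0654700.

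BdiBd21-3.2G0654700 was the most abundant of the 4 in roots. It had 265, 217 and 220.3 CPM in week 2 root replicates 1, 2 and 3, and 128, 145 and 154 CPM in the week 4 root replicates. In the week 2 shoot replicates it had 1, 5 and 1 counts, and in each of the 3 week 4 shoot libraries 0. Every root library thus lay far above every shoot library. From counts pooled over each group, the root level was 2004 times that of shoots at week 2, with a 95% exact counting interval of 972 to 4984 that covers counting error only. The edgeR adjusted p was 2.89e-09. The ratio rests on 7 shoot counts, and leaving out week 2 shoot replicate 2, which held 5 of them, moved the fitted log2 difference from 10.90 to 11.95. In week 4 plants the root level was at least 2747-fold higher, taking a floor of 3 counts over the shoot group (edgeR, adjusted p = 8.85e-09). The 95% exact counting interval of that ratio starts lower, at 2234.

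As RPKM, which is CPM divided by the gene model length in kilobases, BdiBd21-3.2G0654700 reached 122 ± 14.2 (SD, n = 3) in week 2 roots and 74.4 ± 6.94 in week 4 roots. That placed it at rank 763 of the 26463 tested genes in week 2 roots and at rank 1300 in week 4 roots. Its fitted week 2 difference ranked 53 by size among the 7522 genes called higher in roots. That rank is a description, as the gene passed the filter through root libraries alone and its fitted size rests on 7 shoot counts.

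BdiBd21-3.2G0653800, which carries the same best match, had 92.8, 85.1 and 72.4 CPM in week 2 roots and 41.9, 61.1 and 66.02 CPM in week 4 roots. In shoots it stayed measurable, with 1.36, 1.25 and 1.13 CPM at week 2 and 1.11, 0.114 and 0.9003 CPM at week 4, the low value being 2 counts in week 4 shoot replicate 2. Root and shoot libraries did not overlap. The root minus shoot log2 difference was 6.06 (SE 0.39; edgeR, adjusted p = 2.36e-07) in the week 2 plants and 6.26 (SE 0.41, adjusted p = 3.16e-07) in the week 4 plants. The shoot level of BdiBd21-3.2G0653800 was 1.495% of its root level at week 2 and 1.26% at week 4. The same share was 0.283% and 0.177% for the summed root cap genes, 5.70% and 4.90% for 3 genes described as Casparian strip membrane proteins, and 0.0479% and 0% for BdiBd21-3.2G0654700. Whether root tissue in the shoot libraries gave these counts was not tested.

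BdiBd21-3.2G0654500, the short model between the other chromosome 2 genes, was scarce. Its root counts were 9, 60 and 56 at week 2 and 40, 24 and 22 at week 4, against 0 in each of the 6 shoot libraries. These counts were 0.393, 2.30 and 2.84 CPM at week 2 and 1.66, 0.902 and 0.926 CPM at week 4. Week 2 root replicate 1 was the lowest root library for this gene while it was the highest for both other chromosome 2 genes. Against the floor of 3 counts over the shoot group, roots exceeded shoots at least 36.4-fold in week 2 plants (edgeR, adjusted p = 0.00151). In week 4 plants roots exceeded shoots at least 22.3-fold against the same floor (edgeR, adjusted p = 0.00264). Those bounds take the root counts as exact. The 95% exact counting intervals of the ratios start lower, at 29.2 in week 2 plants and 17.8 in week 4 plants.

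BdiBd21-3.1G0383800 ran in the other direction. It had 4.90, 6.82 and 10.1 CPM in week 2 roots and 55.8, 63.3 and 59.1 CPM in week 2 shoots. At week 4 it had 14.3, 11.3 and 14.2 CPM in roots and 61.7, 73.7 and 84.1 CPM in shoots. Every shoot library exceeded every root library by a wide margin. The root minus shoot log2 difference was -3.03 (SE 0.23; edgeR, adjusted p = 4.39e-07) in the week 2 plants and -2.46 (SE 0.22, adjusted p = 1.91e-06) in the week 4 plants. In bulk tissue, fewer cells that express a gene and less RNA per cell cannot be told apart, which holds for every difference given here.

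**Figure D1:**
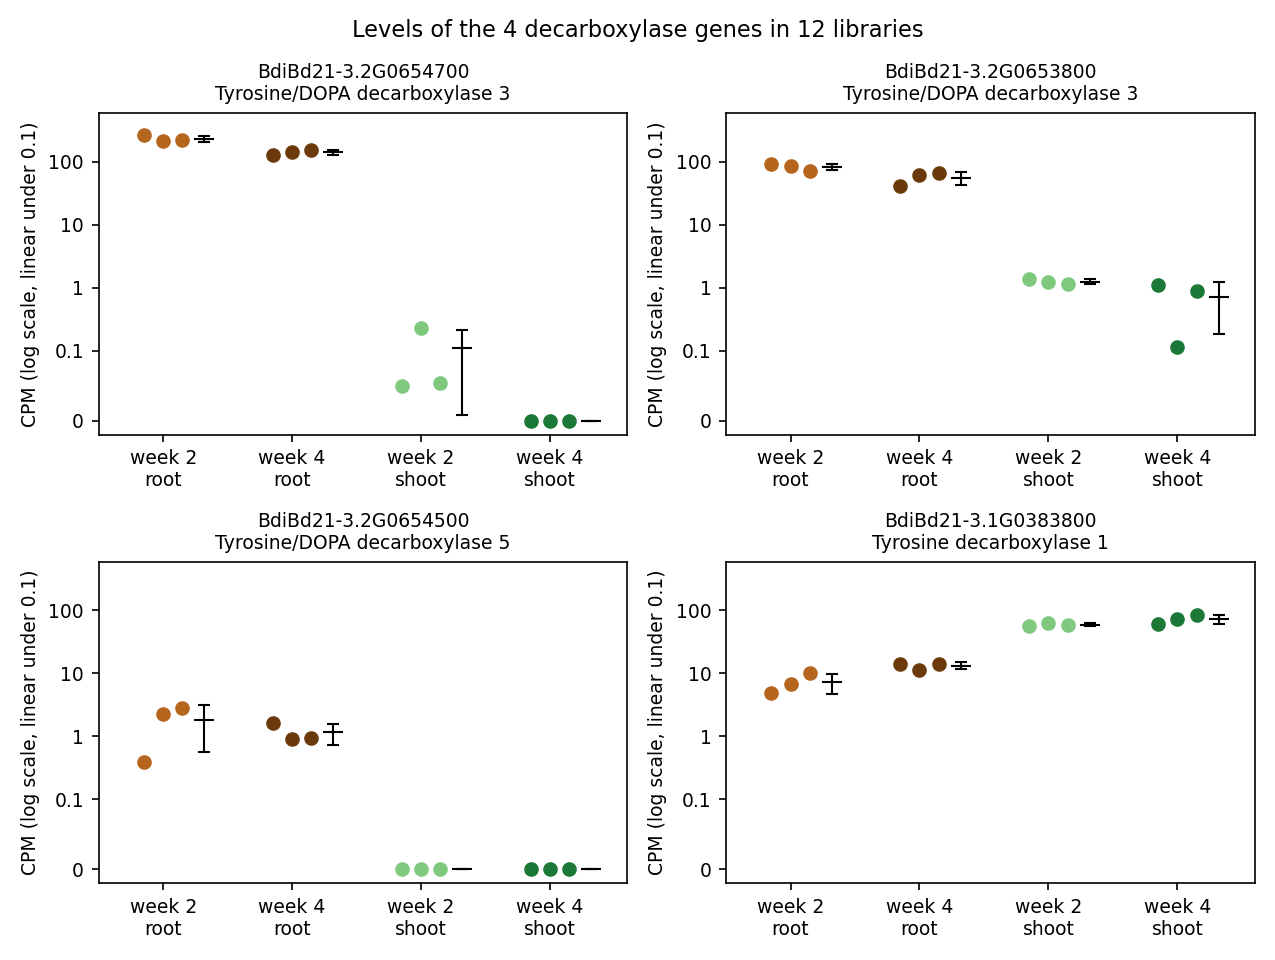
CPM of each gene (vertical axis, log scale, linear under 0.1) in the 12 libraries by group, with points for single libraries and bars for mean ± SD (n = 3). The 3 chromosome 2 genes sit higher in all 6 root libraries than in any shoot library, BdiBd21-3.2G0654500 lies at 0 in all 6 shoot libraries, and BdiBd21-3.1G0383800 is higher in shoots.

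The calls between roots and shoots held for the 4 genes at both weeks in every refit that gave a value. Counting each gene in each refit separately, there were 83 such values at week 2 and 84 at week 4. These include values from refits that left out 1 library each. For BdiBd21-3.2G0654500 and BdiBd21-3.2G0654700, which passed the filter through root libraries alone, that agreement is a description. The interaction tests whether the change with age differs between organs. It called 0 of the 4 genes by edgeR, where 8.52% of all tested genes were called, 6.56% upward and 1.95% downward. The fit gave BdiBd21-3.2G0654500 no usable estimate there, since all 6 shoot libraries held 0 counts. DESeq2 and limma-voom also called 0 of the other 3. For BdiBd21-3.2G0654700 the unadjusted p was 0.0110 in edgeR (adjusted p = 0.0854), 0.0294 in DESeq2 and 0.174 in limma-voom. Those values rest on 7 shoot counts at week 2 and 0 at week 4. Without week 2 shoot replicate 2, which held 5 of the counts, the unadjusted p in edgeR was 0.107. For BdiBd21-3.1G0383800 the unadjusted p was 0.0840 in edgeR, 0.0943 in DESeq2 and 0.0367 in limma-voom.

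The order of the 4 genes by RPKM differed between organs. In week 2 roots BdiBd21-3.2G0654700 (122 ± 14.2, SD, n = 3) was followed by BdiBd21-3.2G0653800 (42.1 ± 5.17), with no overlap between their libraries. BdiBd21-3.1G0383800 (3.38 ± 1.23) and BdiBd21-3.2G0654500 (2.10 ± 1.46) came next, and their libraries overlapped, so their order is not resolved. In week 4 roots the same order gave 74.4 ± 6.94, 28.4 ± 6.43, 6.15 ± 0.771 and 1.32 ± 0.489 RPKM, with no overlap between any neighbours. In shoots BdiBd21-3.1G0383800 came first with 27.5 ± 1.73 RPKM at week 2 and 33.9 ± 5.20 at week 4. BdiBd21-3.2G0653800 came second with 0.630 ± 0.0569 and 0.358 ± 0.266 RPKM.

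Within single root libraries, the RPKM of BdiBd21-3.2G0654700 was 2.64 to 3.15 times that of BdiBd21-3.2G0653800 at week 2 and 2.41 to 3.16 times at week 4, so the ranges overlapped. In week 2 shoots the ratio was 0.0384, 0.192 and 0.0494, which rests on 1, 5 and 1 counts of BdiBd21-3.2G0654700. The order of this pair was therefore opposite in shoots, at 5 or fewer counts of BdiBd21-3.2G0654700 per library, and that change of order was not tested. Counts of BdiBd21-3.2G0654500 were 0.148%, 1.06% and 1.29% of those of BdiBd21-3.2G0654700 in the week 2 root replicates and 1.30%, 0.622% and 0.603% in the week 4 replicates, so its counts did not follow those of its neighbour in a fixed ratio.

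With age, 1 of the 4 genes was called lower and 1 higher in roots, where 6.35% of tested genes were called lower and 12.4% higher, 18.8% in all. The call that BdiBd21-3.2G0654700 fell had a log2 difference of -0.72 (SE 0.16; edgeR, adjusted p = 0.0153), and all 3 week 4 libraries lay below all 3 week 2 libraries. The call was lost without week 4 root replicate 1 (adjusted p = 0.0701) or week 4 root replicate 2 (adjusted p = 0.0566). The other chromosome 2 genes had lower means at week 4 without passing the test. For BdiBd21-3.2G0653800 the log2 difference was -0.57 (SE 0.30, adjusted p = 0.207), again with no overlap between the weeks. It passed in limma-voom (adjusted p = 0.0276), in a fit with the shoot libraries left out (adjusted p = 0.0389) and without week 4 shoot replicate 2 (adjusted p = 0.0260). For BdiBd21-3.2G0654500 it was -0.66 (SE 0.70, adjusted p = 0.548), and its weeks overlapped.

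BdiBd21-3.1G0383800 was called higher in roots at week 4, with a log2 difference of 0.87 (SE 0.22; edgeR, adjusted p = 0.0187) and no overlap between the weeks. The call was lost without week 2 root replicate 1 (adjusted p = 0.0508), week 2 root replicate 2 (adjusted p = 0.0662) or week 4 root replicate 1 (adjusted p = 0.0702). Leaf markers were also higher in week 4 roots than in week 2 roots, though the order of the week 4 root replicates differed from that of the gene. Together the 27 chlorophyll a-b binding genes reached 1119, 1814 and 2299 CPM in the week 2 root replicates and 7332, 6688 and 6411 CPM in the week 4 root replicates, with 23 to 26 of the 27 detected in each. The 6 genes described as ribulose bisphosphate carboxylase small chain summed to 642 to 1427 CPM in week 2 roots and 3085 to 3692 CPM in week 4 roots.

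Expressed as a share of the shoot mean of the same week, BdiBd21-3.1G0383800 in roots stood at 12.3% at week 2 and 18.1% at week 4. The chlorophyll a-b binding genes stood at 2.39% and 9.31%, and the ribulose bisphosphate carboxylase genes at 3.54% and 11.5%. The root level of BdiBd21-3.1G0383800 was thus a larger share of its shoot level than that of either leaf marker list at both weeks. The part of green tissue or of leaf RNA in its rise in roots was not tested.

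**Figure D2:**
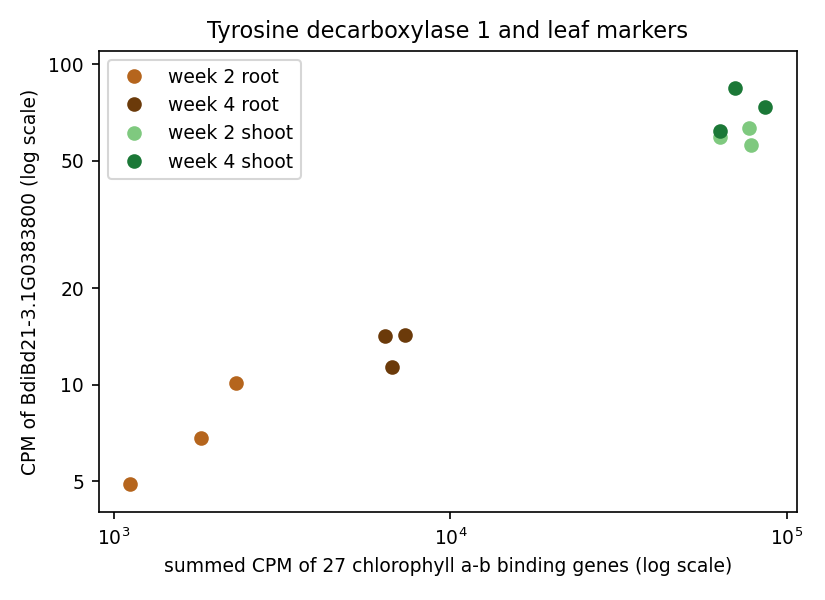
CPM of BdiBd21-3.1G0383800 (vertical axis, log scale) against the summed CPM of 27 chlorophyll a-b binding genes (horizontal axis, log scale), with 1 point per library coloured by group. Week 2 roots, week 4 roots and shoots form separate clusters, with roots at 4.90 to 14.3 CPM and shoots at 55.8 to 84.1 CPM.

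In shoots, 1 of the 4 genes was called lower with age and 0 were called higher, where 19.4% and 14.5% of tested genes were, 33.9% in all. BdiBd21-3.2G0654500 could not be called here, as it had 0 counts in every shoot library. The call was BdiBd21-3.2G0654700, which went from 7 counts over the week 2 shoots to 0 over the week 4 shoots, at least 2.26-fold lower against the floor of 3 counts (adjusted p = 0.0149, edgeR). That bound takes the 7 counts as exact, and the 95% exact counting interval of the ratio starts at 1.39. Of the 7 counts, 5 came from week 2 shoot replicate 2, and the gene was not called without it (adjusted p = 0.139) or in limma-voom (adjusted p = 0.113). BdiBd21-3.2G0653800 had a log2 difference of -0.77 (SE 0.47, adjusted p = 0.228), with its shoot libraries at 1.13 to 1.36 CPM at week 2 and 0.114 to 1.11 CPM at week 4, without overlap. BdiBd21-3.1G0383800 had a log2 difference of 0.30 (SE 0.21, adjusted p = 0.287), and its weeks overlapped. The difference between its changes in roots and in shoots was 0.57 (SE 0.30, adjusted p = 0.274), so the rise in roots was not shown to differ from the change in shoots.

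**Figure D3:**
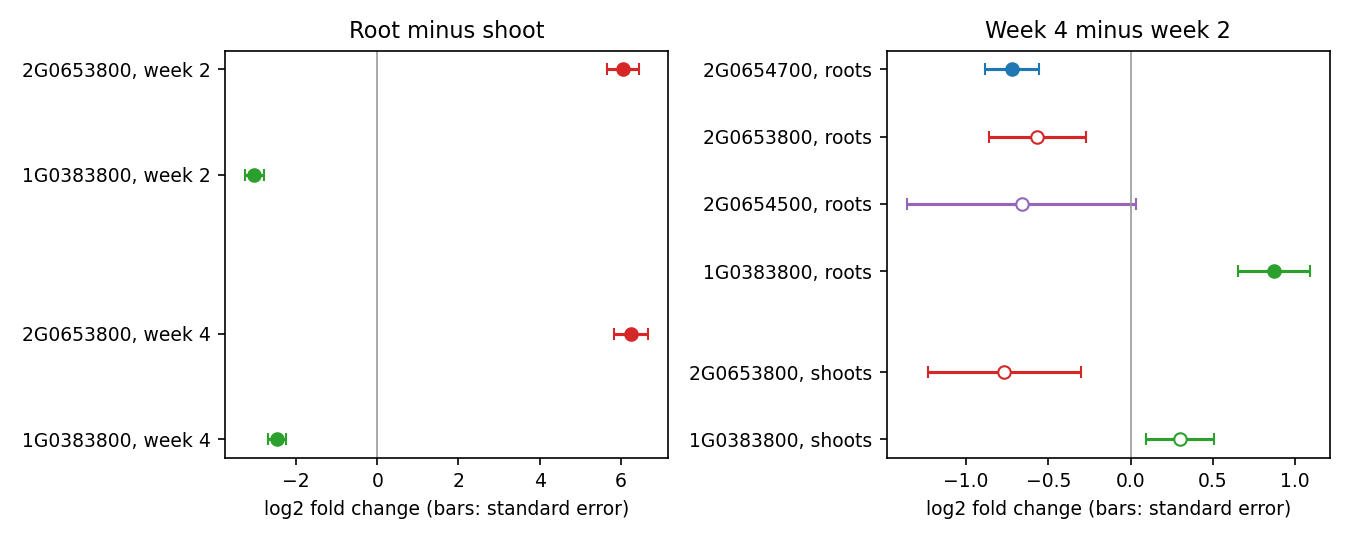
Log2 fold changes with standard errors from the edgeR fit of 12 libraries, for root minus shoot at each week (left) and week 4 minus week 2 in each organ (right). Filled points had an adjusted p under 0.05. Comparisons with 7 or fewer counts in a group are not drawn. BdiBd21-3.2G0653800 and BdiBd21-3.1G0383800 lie on opposite sides of 0 between organs, and with age in roots the 3 chromosome 2 genes lie at -0.72 to -0.57 while BdiBd21-3.1G0383800 lies at 0.87.

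The genes around the chromosome 2 decarboxylases did not share 1 direction. Of the 7 other listed genes between BdiBd21-3.2G0653800 and BdiBd21-3.2G0654700, 3 passed the count filter. Over all tested genes, 28.4% were called higher and 27.7% lower in roots at week 2, and 32.4% and 28.5% at week 4. Among these 3 neighbours 1 was called higher and 2 lower in roots at both weeks, which is a description. The one called higher was BdiBd21-3.2G0654100 (subtilisin-like protease SBT2.3), with a log2 difference of 0.48 (SE 0.12; edgeR, adjusted p = 0.00611) in the week 2 plants and 1.22 (SE 0.13, adjusted p = 5.68e-06) in the week 4 plants. Those called lower were BdiBd21-3.2G0654300 (PLASTID TRANSCRIPTIONALLY ACTIVE 12, a part of the plastid transcription machinery in Arabidopsis) and BdiBd21-3.2G0654400 (O-acyltransferase WSD1, a wax ester synthase in Arabidopsis). These last genes overlap on opposite strands, and BdiBd21-3.2G0654100 overlaps the scarce BdiBd21-3.2G0654200. Whether counting used strand is not given, so reads of overlapping genes may be mixed.

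BdiBd21-3.2G0654300 had a root minus shoot log2 difference of -1.48 (SE 0.19; edgeR, adjusted p = 3.40e-05) in the week 2 plants and -0.68 (SE 0.18, adjusted p = 0.00745) in the week 4 plants. BdiBd21-3.2G0654400 had -1.001 (SE 0.26, adjusted p = 0.00630) and -2.62 (SE 0.28, adjusted p = 6.73e-06). The differences of these neighbours were thus far smaller in size than the 6.06 and 6.26 of BdiBd21-3.2G0653800. The gene between BdiBd21-3.2G0654500 and BdiBd21-3.2G0654700, BdiBd21-3.2G0654600 (no description), did not pass the filter. Its root counts were 0, 25 and 4 at week 2 and 8, 18 and 6 at week 4, with 0 in every shoot library, so it too was detected in roots alone.

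Outside the stretch, BdiBd21-3.2G0653600 (no description) was called higher in roots, by 0.62 log2 units at week 2 (SE 0.12; edgeR, adjusted p = 7.92e-04) and 1.14 at week 4 (SE 0.12, adjusted p = 5.80e-06). BdiBd21-3.2G0653700 (lipoyl synthase, a maker of the lipoyl cofactor) and BdiBd21-3.2G0654900 (F-box protein) were not called in any of the 5 comparisons. On chromosome 1, the nearest tested genes on each side of BdiBd21-3.1G0383800 did not share its shoot pattern. BdiBd21-3.1G0383700 (no description) was at 2.92 ± 0.453 CPM (SD, n = 3) in week 2 roots and 2.39 ± 0.822 CPM in week 2 shoots. BdiBd21-3.1G0384000, whose best match is an indole-3-pyruvate monooxygenase of auxin synthesis, was at 1.24 ± 0.371 CPM in week 2 roots and 0.219 ± 0.334 CPM in week 2 shoots, and was called higher in roots (edgeR, adjusted p = 0.0222 at week 2 and 0.00557 at week 4).

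**Figure D4:**
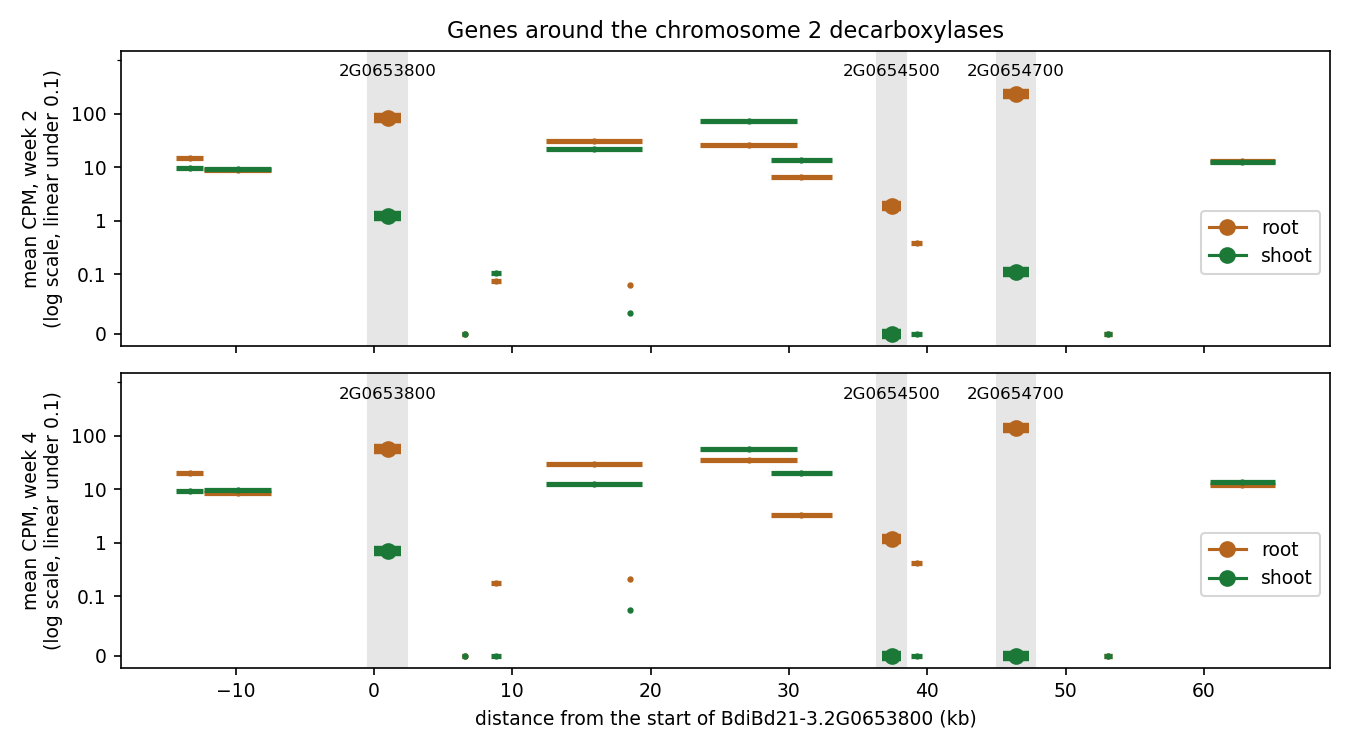
Mean CPM (n = 3, log scale, linear under 0.1) of the genes around the chromosome 2 decarboxylases at week 2 (top) and week 4 (bottom), drawn over their spans by distance in kb from the start of BdiBd21-3.2G0653800, with roots in brown and shoots in green. The decarboxylases lie on grey bands, with BdiBd21-3.2G0653800 at 83.4 and 1.25 CPM and BdiBd21-3.2G0654700 at 234 and 0.112 CPM in roots and shoots at week 2, while the tested neighbours differ far less.

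The 4 genes held a larger share of the family's transcripts in roots than in shoots. In root libraries the 4 genes together held 67.1% to 78.7% of the summed RPKM of the 13 family genes at week 2 and 45.6% to 75.3% at week 4. In shoot libraries they held 35.2% to 44.4% at week 2 and 15.7% to 29.04% at week 4. Most of the remainder belonged to chromosome 3 genes. This difference in shares was not tested.

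BdiBd21-3.2G0654700 alone held 52.1% ± 2.80 (SD, n = 3) of the family RPKM in week 2 roots and 43.1% ± 11.4 in week 4 roots. BdiBd21-3.2G0653800 held 18.0% ± 2.48 and 16.03% ± 3.29. In shoots BdiBd21-3.1G0383800 held 39.4% ± 4.61 at week 2 and 22.9% ± 6.93 at week 4. The chromosome 3 gene BdiBd21-3.3G0195766 held 20.4% ± 6.69 and 42.97% ± 8.59 in the same shoots, so it was ahead of BdiBd21-3.1G0383800 at week 4. In shoots the share of BdiBd21-3.1G0383800 was lower in each week 4 library than in any week 2 library, although its level there was not called changed. In roots its share was higher at week 4, at 2.47% to 5.16% against 0.808% to 2.12% at week 2. A share also moves with the levels of the other family members. Week 4 root replicate 3, at 45.6%, was the one root library in which the 4 genes held less than the rest, and week 4 shoot replicate 1, at 15.7%, was the lowest shoot library.

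**Figure D5:**
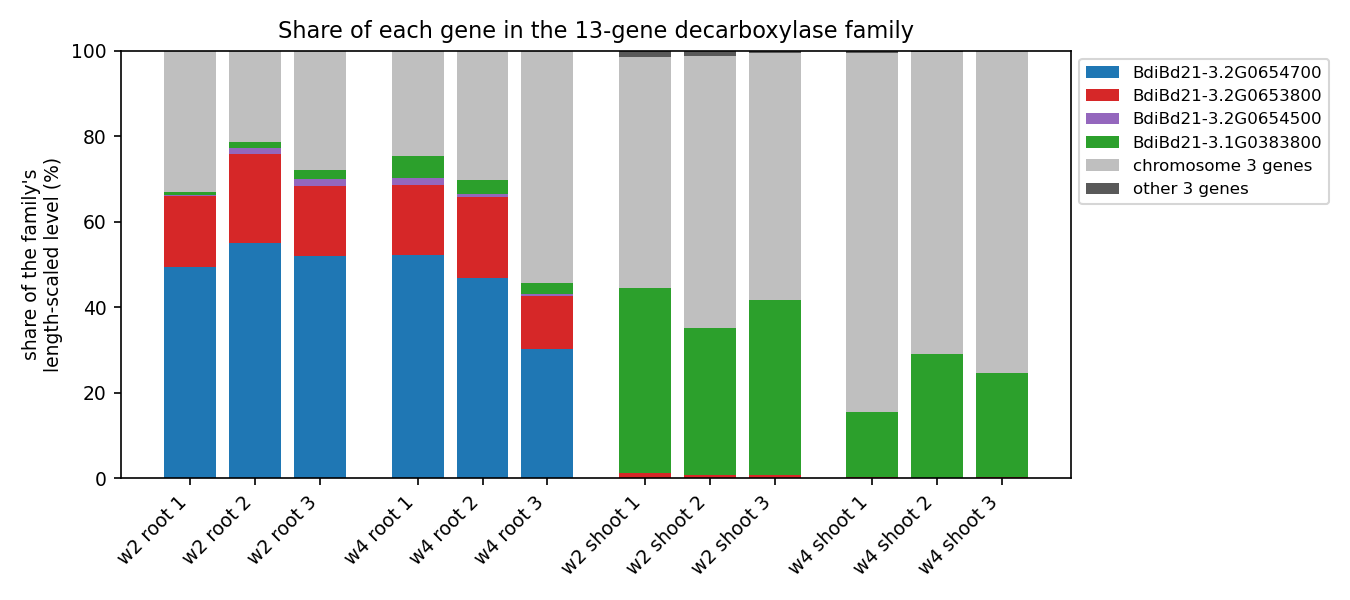
Share (%) of the summed RPKM of 13 decarboxylase genes held by each gene in the 12 libraries, as stacked bars that start at 0. Blue and red (BdiBd21-3.2G0654700 and BdiBd21-3.2G0653800) fill most of the root bars except in week 4 root replicate 3, and green (BdiBd21-3.1G0383800) and grey (6 chromosome 3 genes) fill the shoot bars.

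Of the 9 family genes outside the 4, 6 passed the filter. At week 2, 2 of the 6 were called higher and 2 lower in roots, where 28.4% and 27.7% of all tested genes were. At week 4, 0 were higher and 3 lower, against 32.4% and 28.5%. Among the 6, BdiBd21-3.5G0285466 passed through its shoot libraries alone, with at most 1 count in any root library. The counts of calls between organs are therefore a description. With age, 0 of the 6 were called in roots by edgeR, where 18.8% of all tested genes were called. In shoots 2 rose and 0 fell, where 14.5% of all tested genes rose and 19.4% fell. The most abundant, BdiBd21-3.3G0195766, had 44.2 ± 14.5 CPM (SD, n = 3) in week 2 roots and 28.6 ± 4.64 CPM in week 2 shoots. At week 4 it had 41.3 ± 39.6 CPM in roots and 136.7 ± 40.5 CPM in shoots. BdiBd21-3.2G0028800, BdiBd21-3.2G0028900 and BdiBd21-3.3G0102600, the family genes that did not pass, had 4, 8 and 0 counts over all 12 libraries.

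Other steps around tyrosine were taken from lists found by description. Beside these lists, 28.4% of all tested genes were called higher and 27.7% lower in roots at week 2. At week 4 the shares were 32.4% and 28.5%. Arogenate dehydrogenase makes tyrosine from arogenate in plants, and 2 of its 3 genes were called higher in roots at each week with 0 lower. The most abundant, BdiBd21-3.1G0470350, had 28.4 ± 0.431 CPM (SD, n = 3) in week 2 roots and 15.3 ± 1.67 CPM in week 2 shoots. Of 9 ammonia-lyase genes, whose enzymes take phenylalanine and, in grasses, also tyrosine into phenylpropanoids, 8 were called higher in roots at each week and 0 lower. The most abundant of these was BdiBd21-3.3G0653500, with 1859 ± 202 CPM in week 2 roots and 654 ± 31.4 CPM in week 2 shoots.

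Upstream of both, chorismate mutase had 4 tested genes of 6, with 2 higher and 1 lower in roots at week 2 and 2 in each direction at week 4. Arogenate or prephenate dehydratase, on the phenylalanine branch, had 7 tested genes of 7. Of them, 4 were higher and 1 lower in roots at week 2, and 2 were higher and 1 lower at week 4. Either direction was called for 56.1% of all tested genes at week 2 and 60.9% at week 4. The single tested gene of 4-hydroxyphenylpyruvate dioxygenase, an enzyme of tyrosine breakdown and tocopherol synthesis, was called in neither direction between organs at week 2. At week 4 it was called lower in roots. It was called higher with age in both organs, as were 12.4% of all tested genes in roots and 14.5% in shoots.

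Among enzymes that could act on tyramine or dopamine, 5 polyphenol oxidase genes were tested of 6 in the table, and 2 were higher and 3 lower in roots at each week. The most abundant, BdiBd21-3.3G0200300, had 423 ± 182 CPM (SD, n = 3) in week 2 shoots and 0.0256 ± 0.0443 CPM in week 2 roots. It passed the filter through its shoot libraries alone, so the counts of calls in this list are a description. Amine oxidases, a list that here includes polyamine oxidases, gave 5 higher and 6 lower of 16 at week 2 and 6 higher and 8 lower at week 4. Genes described as norcoclaurine synthase, which in opium poppy joins dopamine to an aldehyde, gave 4 higher of 6 tested at week 2 and 5 at week 4, with 0 lower. Such descriptions also cover related proteins of other function. The 1 gene matched as a tyramine or agmatine transferase did not pass the filter. These counts stand beside the organ-wide shares of 28.4% and 27.7% at week 2 and 32.4% and 28.5% at week 4.

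Genes with the most similar pattern were found by Pearson correlation of log2 CPM over the 12 libraries, among the 20941 genes whose average log2 CPM reached 1. The libraries share organ and age, so high values were common: 1529 genes exceeded 0.95 for BdiBd21-3.2G0654700, 1271 for BdiBd21-3.2G0653800, 308 for BdiBd21-3.2G0654500 and 1705 for BdiBd21-3.1G0383800. Closest to BdiBd21-3.2G0654700 were BdiBd21-3.3G0645400 (AP2-like factor PLT2, a regulator of the root meristem in Arabidopsis; r = 0.999), BdiBd21-3.3G0316200 (Core-2/I-branching domain; r = 0.998) and BdiBd21-3.4G0129400 (best match to the disease resistance protein RPM1; r = 0.997). In roots the first of these had 8.96 ± 0.314 CPM (SD, n = 3) at week 2 and 5.78 ± 0.454 at week 4, and its shoot means were at most 0.0477 ± 0.0465.

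Closest to BdiBd21-3.2G0653800 were BdiBd21-3.2G0142900 (calmodulin-3, a calcium sensor; r = 0.997), BdiBd21-3.2G0244100 (delta-1-pyrroline-5-carboxylate dehydrogenase, of proline breakdown; r = 0.993) and BdiBd21-3.1G0173300 (no description; r = 0.992). A high r says nothing of the size of a difference: the calmodulin gene had 137.5 ± 5.79 CPM (SD, n = 3) in week 2 roots and 42.44 ± 1.198 in week 2 shoots. Closest to BdiBd21-3.2G0654500 were BdiBd21-3.1G0867800 and BdiBd21-3.4G0051900 (no description; r = 0.985 and 0.981) and BdiBd21-3.1G0971000 (tryptamine benzoyltransferase 1; r = 0.981). In roots the last had 10.5 ± 7.24 CPM (SD, n = 3) at week 2 and 7.97 ± 2.78 at week 4, and it was at 0 in every shoot library.

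Closest to BdiBd21-3.1G0383800 were BdiBd21-3.5G0025601 (glyoxylate/hydroxypyruvate reductase HPR3; r = 0.997), BdiBd21-3.4G0343200 (chloroplastic fructose-bisphosphate aldolase, of the Calvin cycle; r = 0.997) and BdiBd21-3.1G0327300 (the Rieske subunit of the cytochrome b6-f complex, of photosynthetic electron transport; r = 0.997). In roots the aldolase gene had 352 ± 118 CPM (SD, n = 3) at week 2 and 914 ± 72.7 at week 4, and in shoots 6505 ± 527 and 8097 ± 1401. Among the 4 genes themselves, r was 0.980 between BdiBd21-3.2G0654700 and BdiBd21-3.2G0653800 and -0.968 between BdiBd21-3.2G0654700 and BdiBd21-3.1G0383800, as a description over the same 12 libraries.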

How the data were processed

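The table deposited by the authors gives unnormalized read counts for each gene in 12 libraries. HISAT2 2.0.5, featureCounts 1.5.0-p3 and HTSeq 0.6.1 are named in the submitters' processing notes without their roles. The sources used here give neither the strand setting nor the handling of reads that match several genes. Gene length and description are other deposited columns. Columns were matched to samples by organ, week and replicate number, since the codes in the week 4 shoot titles all end in 1.

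edgeR 4.0.16 in R 4.3.3 was used with filterByExpr (minimum count 10, minimum total 15), TMM scaling, 1 robust quasi-likelihood fit of all 12 libraries with 1 mean per group, and Benjamini-Hochberg adjustment over 26463 genes. A gene is called where its adjusted p lies under 0.05. The SE of a log2 difference is its size divided by the square root of F. CPM and RPKM use TMM-scaled library sizes, and RPKM the table's gene length. Fold bounds use a floor of 3 counts per group. Totals of 17261299 to 24186744 counts per library set the precision, and intervals cover counting error only. The fit was tested on simulated data.

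Alternatives were RLE and upper-quartile scaling, the 50 most counted genes left out, no filter, a filter of CPM 1 in 3 libraries, DESeq2 1.42.0, limma-voom (limma 3.58.1), the compared libraries alone, a replicate block and each library left out. Levels were also scaled by total counts and by RLE.

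The genes, lists and tests were chosen with earlier results of these data known. Named genes are the 4 decarboxylases, for each the 3 genes of highest correlation (log2 CPM with a prior count of 2), the genes between the chromosome 2 members with 2 on each side, 2 on each side on chromosome 1, and the most abundant gene of a list.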

Additional observations from a re-analysis of the deposited data

How the results depend on the processing

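No called result changed sign. The interaction of BdiBd21-3.2G0653800, not called in any fit, turned from 0.20 to -0.26 without week 4 shoot replicate 2 and ranged from -0.26 to 0.69 with 1 library left out. Of 157 log2 differences recomputed under the other settings, 154 kept their direction and side of the threshold, and of 216 with 1 library left out, 208 did. The changes of call lay in 3 results for age in roots and 1 in shoots. For BdiBd21-3.2G0653800 in roots, limma-voom (log2 difference -0.59) and the fit of the compared libraries alone (-0.60) passed the threshold, and leaving out 1 library gave -0.70 to -0.39. For BdiBd21-3.2G0654700 in roots, leaving out 1 library gave -0.78 to -0.62. For BdiBd21-3.1G0383800 in roots it gave 0.65 to 1.17. For BdiBd21-3.2G0654700 in shoots, limma-voom gave -2.18 without a call, and leaving out 1 library gave -4.80 to -3.37, fitted values that depend on the prior count because week 4 shoots held 0 counts. The cause of these changes was not tested. The fit of the compared libraries alone gave no value for BdiBd21-3.2G0654500 at week 2 or for BdiBd21-3.2G0654700 in shoots, since neither passed its filter. The scalings moved the median log2 difference of all genes by -0.04 to 0.03.

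Whether replicate numbers pair the libraries was not settled. Over 18 same-numbered pairs the deviations from group means correlated at -0.12 to 0.18. Of 12 libraries, 7 correlated best with one of their own number, and no chance level was set for that count. With the replicate block, counts of called genes went from 14858 to 14445 and from 16111 to 15783 between organs, from 4962 to 4204 and from 8966 to 8511 with age, and from 2254 to 1958 for the interaction. No call of the 4 genes changed; BdiBd21-3.2G0654700 in roots kept -0.72 (adjusted p = 0.0349, edgeR).

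With total counts in place of TMM, levels moved by over 1 SD for BdiBd21-3.2G0654700 in roots (to 265 CPM at week 2 and 159 CPM at week 4), BdiBd21-3.2G0653800 at week 2 (to 94.4 CPM in roots and 1.13 CPM in shoots) and BdiBd21-3.1G0383800 in week 2 shoots (to 53.7 CPM). BdiBd21-3.2G0654700 had 0 to 5 counts per library in shoots and BdiBd21-3.2G0654500 had 9 to 60 in roots, so their levels there are imprecise.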
